A study of Mus musculus with 12 samples.

Results

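The comparison concerned the spleens of 3 β3-/- mice and 3 WT mice, read from 1 RNA-seq library per mouse, with immunoglobulin genes, T cell receptor segments and Y-linked genes left out. β3-/- mice carry a constitutive loss of Itgb3, which encodes integrin β3, and both groups were on the C57BL/6 background, 8 to 10 weeks old and otherwise untreated. The WT mice were purchased and the β3-/- mice were a gift from another laboratory, and the methods do not call them littermates. The spleen files list 22562 genes, and 15480 of them reached 0.1 FPKM in 3 or more of the 6 libraries and were tested. Of these, 15067 were compared here, after 397 receptor segments, 12 immunoglobulin constant genes and 4 Y-linked genes were set aside by their symbols. A few segments under other symbols stayed by this rule, 2 of immunoglobulin and 16 of T cell receptor type. FPKM is a fragment number corrected for transcript length and library depth. Values below are FPKM in the order of libraries 1, 2 and 3 of a genotype.

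The mouse spleen has a white pulp of B and T cells and a red pulp in which macrophages take up old red cells and recycle their iron. In mice the red pulp also makes red cells, megakaryocytes and granulocytes, so spleen RNA holds transcripts of maturing erythroid cells beside those of lymphocytes. Integrin β3 pairs with the αIIb chain on platelets and with the αv chain on many other cells. In whole tissue, fewer cells of a type and less RNA per cell cannot be told apart.

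The libraries matched their tissue label. The spleen transcription factors Tlx1 (17.3 to 27.2 FPKM over the 6 libraries) and Nkx2-5 (4.17 to 6.14), the red pulp macrophage factor Spic (46.7 to 60.7) and the B cell gene Cd79a (369 to 634) were present in every library, whereas the lung surfactant gene Sftpc reached at most 0.261. The 4 Y-linked genes were listed at 0 in all 3 β3-/- libraries and at 3.71 FPKM or more in all 3 WT libraries, so sex and genotype cannot be told apart, nor can the source of the mice and genotype. Pancreatic transcripts were high in WT library 2 and β3-/- library 2, and adipocyte transcripts were highest in β3-/- library 3, as described at the end. Summed over genes, FPKM came to between 494300 and 508220 in WT libraries and between 551350 and 593180 in β3-/- libraries. Globin genes took 1.49% to 5.82% of these sums in WT and 11.3% to 20.6% in β3-/- spleens. The median log2 fold change over the 15067 genes was −0.16, and changes are best read against that shift.

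Itgb3 (ENSMUSG00000020689), the targeted gene, was lower in β3-/- spleens without being lost. It had 10.6, 8.95 and 8.50 FPKM in WT and 3.57, 4.02 and 3.52 FPKM in β3-/- libraries, and the groups did not overlap. The log2 fold change was −1.31 (SE 0.13, adjusted p = 0.00552 by limma). Which part of the gene the remaining reads came from is not shown by gene-level values.

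With limma-trend on log2(FPKM + 0.1), 401 DEGs (adjusted p below 0.05 and an absolute log2 fold change above 1) were found in β3-/- spleens. Of these 306 were higher, 2.03% of the genes compared, and 95 were lower, 0.631%. The β3-/- and WT libraries did not overlap for any of the 401 DEGs, nor for 43.5% of all genes compared. Selection by p and fold change favors genes without overlap, so this adds no support. Within groups single libraries stood out. Of the 306 higher DEGs, β3-/- library 1 was the highest in 220 and WT library 1 was the highest WT library in 251. Of the 95 lower DEGs, WT library 2 was the highest in 60, WT library 1 in 25 and WT library 3 in 10. By adjusted p alone, 460 genes (3.05%) passed as higher and 822 (5.46%) as lower, 8.51% in either direction. At the fold threshold, Vopp1 (1.01) and Gbp2b (1.01) were just inside and Grina (0.997) and Fam72a (−0.999) just outside.

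These counts rested on single libraries. Higher and lower DEGs numbered 220 and 38 without WT library 1, 16 and 7 without WT library 2, 10 and 7 without WT library 3, 47 and 34 without β3-/- library 1, 468 and 189 without β3-/- library 2, and 21 and 30 without β3-/- library 3. Rescaling also moved the balance between directions. Rescaling to TPM gave 389 higher and 319 lower DEGs, TPM without immunoglobulin genes gave 366 and 167, and no filter on low values gave 78 and 58. Of the named genes, Rps18-ps6 (lower) and Jchain (higher) kept their call in all 20 alternatives. Igll1, Vpreb1a, Vpreb1b, Umod, Tmem132e and Nme1nme2 kept theirs in 15 and Jhy in 14. These 7 passed the filter through the WT libraries alone and were not tested when any WT library was left out, so their calls could not be lost there.

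**Figure D1:**
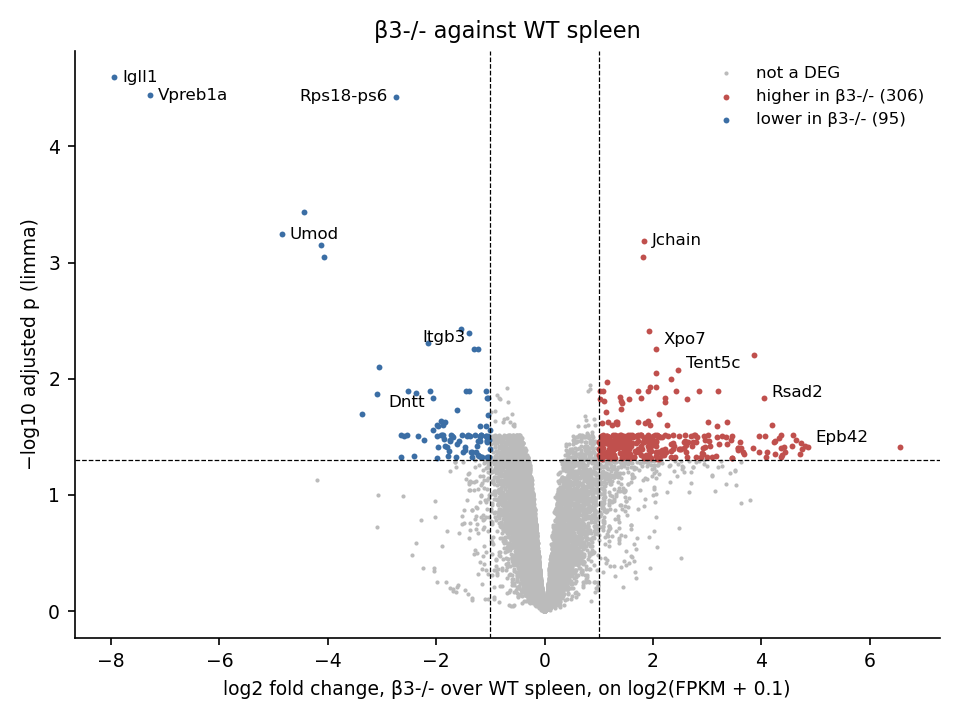
Each point is a gene, with its log2 fold change (β3-/- over WT spleen, on log2(FPKM + 0.1)) on the x axis and −log10 of its adjusted p on the y axis, and dashed lines mark the thresholds. The 306 higher DEGs (red) lie mostly just above the line at an adjusted p of 0.05, whereas Igll1 and Vpreb1a stand far to the upper left of the 95 lower DEGs (blue).

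Genes of the maturing red cell made up most of the 15 largest named increases. Of all 306 higher DEGs, 44 were on the 3 red cell lists and 93 were on any list, so most were on none. Of 61 tested genes on 3 red cell lists (membrane and skeleton, globins and heme synthesis, regulators), 47 were higher, none was lower and 14 did not pass, against 3.05% of all genes higher. All of the 15 largest named increases but Ypel4, Apol11b, Btnl10, Samd11 and Hbq1b were on these lists. The summed FPKM of the 3 lists was 31090, 8059 and 22370 in WT and 128000, 65150 and 102000 in β3-/- libraries, so the β3-/- library with the least was above the WT library with the most.

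The membrane and skeleton list rose most, with 18 of 22 genes higher and a median log2 fold change of 3.76, against −0.16 over all genes. Slc4a1, which encodes the anion exchanger band 3, had 66.1, 6.74 and 4.18 FPKM in WT and 560.3, 221 and 292 FPKM in β3-/- libraries. WT library 1 stood well above the other WT libraries and still below every β3-/- library. The log2 fold change was 4.73 (SE 0.94, adjusted p = 0.036). Epb42, encoding protein 4.2 of the membrane skeleton, had 7.23, 0.539 and 0.266 FPKM in WT and 56.8, 24.8 and 29.2 FPKM in β3-/- libraries, the largest increase by the naming rule (log2 fold change 4.85, SE 1.02, adjusted p = 0.0386). The β-spectrin gene Sptb rose by a log2 fold change of 4.2, and the skeletal linkers Ank1, Dmtn and Add2 by 3.95, 3.57 and 4.72. The blood group genes Kel, Rhag and Rhd rose by 4.75, 4.38 and 4.11. Epb41, encoding protein 4.1, had the smallest adjusted p of the list (0.0128, log2 fold change 1.72). Slc2a1, Gypc, Cldn13 and Bcam did not pass, with log2 fold changes of −0.52, 1.03, 3.51 and −0.04.

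The most abundant globin genes and Alas2 were also highest in library 1 of each genotype, with WT library 2 the lowest. Hbb-bs, an adult β-globin gene, had 11827, 3085 and 8394 FPKM in WT and 46792, 24418 and 34680 FPKM in β3-/- libraries, and Hba-a2, an adult α-globin gene, had 6056, 1451 and 4546 against 24738, 13123 and 21996. Their log2 fold changes were 2.34 and 2.49 (adjusted p = 0.0418 and 0.04). Reads may be shared between near-identical globin copies, so the split between Hba-a1 and Hba-a2 and between Hbb-bs and Hbb-bt is uncertain. Of heme synthesis genes, Alas2, the erythroid form of the enzyme of the rate-limiting step, had 136, 29.4 and 73.5 FPKM in WT and 706, 359 and 529 FPKM in β3-/- libraries (log2 fold change 2.94, SE 0.52, adjusted p = 0.0312). Fech, Cpox, Alad, Urod and Ppox, which encode later enzymes of the pathway, rose by 2.59, 1.96, 1.57, 1.56 and 1.18, and the mitochondrial iron importer Slc25a37 by 2.08. In all, 13 of 16 genes of the list were higher and Uros, Tmem14c and Slc25a38 did not pass.

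Erythroid transcription factors and maturation genes were higher too, 16 of 23 with a median of 2.05. Gata1, the lineage's main transcription factor, had 8.22, 2.11 and 2.72 FPKM in WT and 37.6, 13.3 and 21.6 FPKM in β3-/- libraries (log2 fold change 2.58, SE 0.54, adjusted p = 0.0393), and its partner Tal1 rose by 2.95. Klf1, which switches on many red cell genes, had 15.3, 0.945 and 1.21 FPKM in WT against 62.0, 19.0 and 21.9 FPKM, and did not pass (log2 fold change 3.43, adjusted p = 0.0645). The erythropoietin receptor gene Epor rose by 2.15, Gfi1b by 2.33 and the α-globin chaperone gene Ahsp by 4.37. Xpo7, a nuclear exporter gene of late erythroblasts, had the smallest p of the list, with 9.35, 8.56 and 7.24 FPKM in WT and 47.6, 26.8 and 33.2 FPKM in β3-/- libraries (log2 fold change 2.05, SE 0.21, adjusted p = 0.00552). The stem cell factor receptor Kit (−0.05) did not pass.

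**Figure D2:**
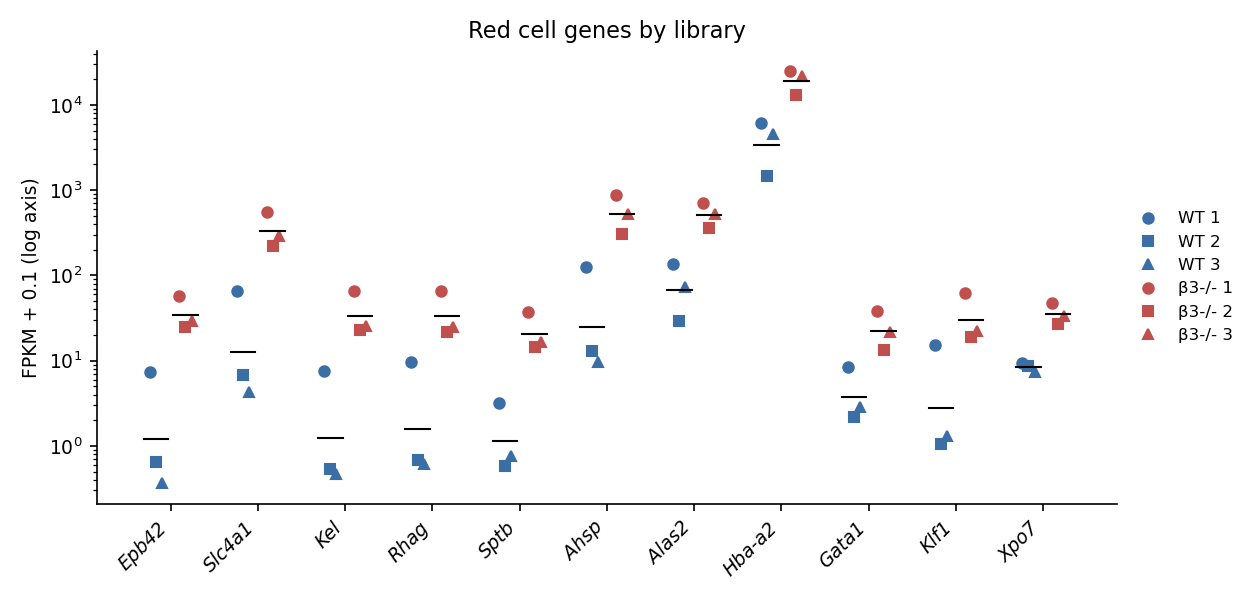
FPKM + 0.1 on a log axis for 11 red cell genes in 3 WT (blue) and 3 β3-/- (red) spleen libraries, with a black line at the mean of each group on the log scale. WT library 1 (blue circles) sits above the other WT libraries for most genes and below all β3-/- libraries, and Xpo7 has the tightest groups of the 11.

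The red cell calls depended on the libraries kept and on the settings. All 3 list medians stayed positive relative to all genes in every alternative, between 3.16 and 5.15 for the membrane list, 1.76 and 2.76 for globins and heme, and 1.89 and 2.46 for the regulators. The 47 calls became 44 without WT library 1, 1 without WT library 2, 1 without WT library 3, 4 without β3-/- library 1, 51 without β3-/- library 2 and 1 without β3-/- library 3. They became 2 without the pancreas-containing libraries and 34 without the libraries of each genotype with most adipocyte transcripts. For limma without trend they became 3, with no filter 7 and under median-of-ratios scaling 22.

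GATA1 binds the sequence GATA, and the letters GATAAG (searched on both strands, CTTATC being its reverse complement) were looked for in the 120 bases before the RefSeq transcription start. They were found before 9 of the 46 red cell genes with a RefSeq promoter, 19.6%, and before 8 of the 35 of these called higher. The share was 1.85% over the first promoter of each gene compared and 3.01% over all 32851 promoters in the table. Kel and Rhag are shown as called genes that hold it, in GRCm38.p6 (chr6:41704326-41704445 on the minus strand and chr17:40811029-40811148 on the plus strand), with the match in capitals.
Kel: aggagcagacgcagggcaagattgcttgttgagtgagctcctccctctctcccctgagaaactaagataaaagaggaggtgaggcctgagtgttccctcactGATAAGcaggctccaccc
Rhag: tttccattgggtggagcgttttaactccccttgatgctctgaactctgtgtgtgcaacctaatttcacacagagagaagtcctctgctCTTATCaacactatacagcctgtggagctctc
The match began 18 bases before the start of Kel and 32 bases before that of Rhag, where it lies on the opposite strand. A match of letters is a description of the sequence and does not show that GATA1 was bound.

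The surrogate light chain genes Igll1 and Vpreb1a had the largest decreases by the naming rule. Igll1 (λ5) and the Vpreb1 genes encode the chains that stand in for the light chain in the receptor of pre-B cells, a bone marrow stage of B cell development. Igll1 (ENSMUSG00000075370) had 34.2, 32.7 and 21.6 FPKM in WT libraries. In β3-/- libraries it had 0.0632 FPKM in library 1 and was listed at 0 in the others. The log2 fold change on log2(FPKM + 0.1) was −7.95 (SE 0.27, adjusted p = 2.55e-05). Vpreb1a had 18.8, 28.3 and 19.9 FPKM in WT and 0, 0.0686 and 0.0673 FPKM in β3-/- libraries (log2 fold change −7.29, adjusted p = 3.61e-05). Vpreb1b had 2.18, 1.86 and 1.72 FPKM in WT and 0, 0 and 0.068 FPKM in β3-/- libraries (−4.08, adjusted p = 0.000896). Vpreb1a and Vpreb1b are close relatives, and reads may be shared between them.

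Other genes of early B cells moved less or did not pass. Dntt, the enzyme that adds untemplated bases at receptor gene joints, had 8.10, 13.2 and 9.75 FPKM in WT and 3.43, 2.06 and 1.84 FPKM in β3-/- libraries (log2 fold change −2.06, SE 0.27, adjusted p = 0.0145). Vpreb3, which is also expressed in mature B cells, fell by 0.93 and the B cell identity factor Pax5 by 0.63 on the log2 scale. The recombinase genes Rag1 and Rag2 were low in all libraries, at most 0.73 and 0.391 FPKM, and did not pass. On the list of 20 early B-lineage genes, which was written after values were seen, 6 were lower, against 5.46% of all genes, and none was higher. Igll1, Vpreb1a, Vpreb1b and Dntt were among the 6, and the list median was −0.47. The median relative to all genes was −0.31. Igll1 lies on chromosome 16, and the 120 bases before its RefSeq start (GRCm38.p6, chr16:16863986-16864105, minus strand) are shown because it is the gene with the largest decrease. Capitals mark CACCTG, the reverse complement of CAGGTG, a form of the E-box that E2A proteins of early B cells bind.
Igll1: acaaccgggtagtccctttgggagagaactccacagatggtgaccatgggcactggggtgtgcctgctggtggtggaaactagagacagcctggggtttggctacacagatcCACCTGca
CAGGTG on either strand was present in 8.43% of all promoters of this length.

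Mature B cell genes were modestly lower. Of 18 B cell markers 10 were lower, against 5.46% of all genes, and none was higher. Their median was −0.61, and the libraries did not overlap, with β3-/- lower, for 17 of 18, against 32.7% of all genes. The receptor chain gene Cd79b had 810.3, 816 and 733 FPKM in WT and 387, 553 and 356 FPKM in β3-/- libraries (log2 fold change −0.89, SE 0.17, adjusted p = 0.0345). Tnfrsf13c, the receptor for the survival factor BAFF, had 72.4, 82.6 and 60.5 against 29.1, 46.1 and 29.4 FPKM (−1.06, adjusted p = 0.0339). β3-/- library 2 was the highest of its group in both. Ms4a1 (CD20) fell by 0.72, Cd79a by 0.62 and Spib, a transcription factor of B cells, by 0.95. Of follicular and marginal zone genes, the homing receptor Cxcr5 (−0.92), the IgE receptor Fcer2a (−0.88) and S1pr1 (−0.64) were lower, and 12 of 15 did not pass. The 10 lower B cell markers became 0 on leaving out WT library 1, 2 or 3 or β3-/- library 1 or 3, and 17 without β3-/- library 2. They became 18 for TPM, 5 under median-of-ratios scaling, and 0 with no filter or for limma without trend.

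Smaller shares of the genes that B cells use to signal and to present antigen were lower, against 5.46% of all genes. Of 39 tested genes of B cell receptor signaling 8 were lower, among them the adaptors Blnk (−0.59) and Bcl10 (−0.49). Of 13 MHC class II genes 6 were lower, including the class II transactivator Ciita (−0.63), H2-Ab1 (−0.50) and the peptide loading genes H2-DMa (−0.56) and H2-DMb2 (−0.65). Of 21 costimulation genes 5 were lower and Tnfrsf17, also on the plasma cell list, was higher. Cd40 had 42.0, 41.1 and 37.7 FPKM in WT and 18.7, 30.5 and 22.4 FPKM in β3-/- libraries (log2 fold change −0.78, adjusted p = 0.0417), and its ligand gene Cd40lg did not pass (−0.48, adjusted p = 0.121). Icosl (−0.88), Tnfrsf13b (−0.76), Traf5 (−0.61) and Tnfrsf13c were lower too, and Cd80 (−0.23) and Pdcd1lg2 (−0.23) did not pass. Of 31 genes of the NF-κB list 6 were lower and Il1b was higher (0.37). The lower members were Tnf, Nfkbid, Bcl3, Relb, Nfkbie and Nfkb2, whereas Rela (−0.35, adjusted p = 0.0654) and Nfkbia (−0.01) did not pass. List medians were −0.36 for receptor signaling and −0.56 for MHC class II, against −0.16 over all genes. The costimulation and NF-κB medians, both −0.23, lay close to that shift. The libraries did not overlap, with β3-/- lower, for 7 of 21 costimulation genes, near the 32.7% of all genes. The 8 receptor signaling, 6 MHC class II and 5 costimulation calls all became 0 on leaving out WT library 1, 2 or 3 or β3-/- library 1 or 3, and 27, 11 and 8 without β3-/- library 2. The 6 lower NF-κB calls became 0 or 1 on leaving out any of the former and 13 without β3-/- library 2. For TPM the 4 counts were 27, 12, 8 and 17, and under median-of-ratios scaling 1, 1, 2 and 2.

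The cytokine gene Tnf and its neighbors Ltb and Lta were lower. Tnf had 3.37, 4.03 and 3.24 FPKM in WT and 1.46, 1.30 and 1.12 FPKM in β3-/- libraries (log2 fold change −1.39, SE 0.17, adjusted p = 0.0128). Ltb and Lta, which encode the lymphotoxins that organize white pulp, were named after their values were seen. Ltb had 312, 317 and 286 FPKM in WT and 117, 197 and 140.4 FPKM in β3-/- libraries (−1.04, adjusted p = 0.0312), and Lta fell by 1.23 on the log2 scale (adjusted p = 0.0343). The 3 genes lie within chromosome 17 of GRCm39, from 35413382 for the start of Ltb to 35424327 for the end of Lta.

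Among plasma cell markers the calls were in the other direction. Of 16 markers 7 were higher and none was lower, with a median of 0.53, against 3.05% of all genes higher. Jchain, the joining chain of secreted IgA and IgM, had 679, 667 and 771 FPKM in WT and 2474, 2418 and 2628 FPKM in β3-/- libraries, with little spread in either group (log2 fold change 1.83, SE 0.12, adjusted p = 0.000648). Tent5c, which stabilizes immunoglobulin transcripts and is also expressed in erythroid cells, had 15.6, 8.47 and 11.2 against 75.3, 44.5 and 75.6 FPKM (2.46, adjusted p = 0.00833). The BCMA gene Tnfrsf17 had 1.21, 2.57 and 1.99 against 8.26, 5.55 and 7.24 FPKM (1.85, adjusted p = 0.024). Derl3 (1.07), Eaf2 (0.85), Sdc1 (0.62) and the plasma cell transcription factor Xbp1 (0.42) were higher as well. Ccr10, a chemokine receptor of IgA plasma cells, rose by 2.06 from 0.403, 0.241 and 0.373 to 1.75, 1.39 and 2.01 FPKM. Of 29 genes of endoplasmic reticulum folding none passed by limma. Without adjustment of p, 4 were higher and 3 lower below 0.05, against 8.97% higher and 26.7% lower of all genes. The 7 calls became 4, 4 and 1 without WT libraries 1, 2 and 3, and 3, 8 and 3 without β3-/- libraries 1, 2 and 3.

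**Figure D3:**
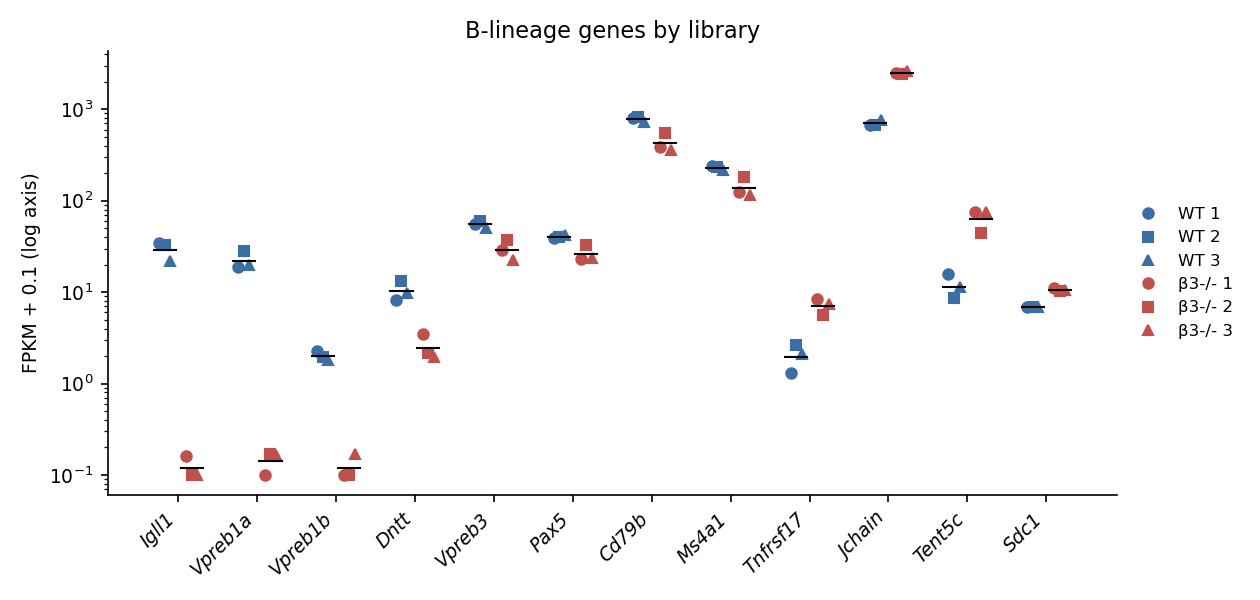
FPKM + 0.1 on a log axis for 12 B-lineage genes in 3 WT (blue) and 3 β3-/- (red) spleen libraries, with a black line at the mean of each group on the log scale. The surrogate light chain genes sit at or near 0 FPKM in all β3-/- libraries, Cd79b and Ms4a1 are modestly lower, and Jchain, Tnfrsf17 and Tent5c are above WT.

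Interferon-stimulated genes were higher in part. Of 43 tested genes 12 were higher and none was lower, with a median of 0.47, against 3.05% of all genes higher. Rsad2, the antiviral enzyme viperin, had 7.91, 2.25 and 1.79 FPKM in WT and 69.1, 36.0 and 63.5 FPKM in β3-/- libraries (log2 fold change 4.04, SE 0.53, adjusted p = 0.0146). Isg15, a ubiquitin-like protein gene, had 26.6, 15.8 and 11.4 against 92.2, 54.5 and 108 FPKM (2.27, adjusted p = 0.0248). Oas3, an oligoadenylate synthetase gene, had 3.14, 1.54 and 1.86 against 12.6, 8.82 and 11.6 FPKM (2.33, adjusted p = 0.00999). In each of the 3 genes WT library 1 was the highest WT library and β3-/- library 2 the lowest β3-/- library, as for Slc4a1. Isg20 (2.28), Oas1a (1.19), Oas2 (1.12) and the regulator Irf7 (0.87) were higher, whereas Mx1 (0.27), Ifit3 (0.63) and Bst2 (0.20) did not pass. The Oas and Ifit genes have close relatives, and their reads may be shared. The 12 calls became 7, 1 and 0 without WT libraries 1, 2 and 3, and 6, 11 and 1 without β3-/- libraries 1, 2 and 3.

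The interferon-stimulated response element, which interferon-activated factors bind, holds GAAA, 2 further bases and GAAA again. These letters, on either strand, were found in the 120 bases before the start of 10 of 30 interferon-stimulated genes with a RefSeq promoter, in 4 of the 10 that were higher and 6 of the 20 that did not pass, against 1.22% of all promoters. Isg15 (chr4:156200819-156200938), Oas3 (chr5:120777660-120777779) and Rsad2 (chr12:26456453-26456572), all on the minus strand of GRCm38.p6, are shown as called genes that hold it, with the matches in capitals.
Isg15: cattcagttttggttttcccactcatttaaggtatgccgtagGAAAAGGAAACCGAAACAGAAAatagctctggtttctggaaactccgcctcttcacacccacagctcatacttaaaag
Oas3: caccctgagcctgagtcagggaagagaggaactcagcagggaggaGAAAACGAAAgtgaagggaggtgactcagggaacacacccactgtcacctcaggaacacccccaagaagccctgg
Rsad2: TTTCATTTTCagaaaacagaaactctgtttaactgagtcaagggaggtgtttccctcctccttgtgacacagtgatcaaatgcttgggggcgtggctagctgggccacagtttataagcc
Isg15 held 3 overlapping matches, and that of Rsad2 was on the opposite strand.

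A minority of granulocyte, platelet and mast cell genes passed as higher. Of 24 neutrophil granule and myeloid genes 5 were higher (Mpo, Prtn3, Ngp, Ly6g and Ms4a3) and 19 did not pass, with a list median of 1.99, against 3.05% of all genes higher. Mpo, the myeloperoxidase of primary granules, had 6.94, 4.25 and 3.62 FPKM in WT and 26.3, 16.1 and 116 FPKM in β3-/- libraries (log2 fold change 2.92, SE 0.67, adjusted p = 0.0442). Of 26 platelet and megakaryocyte genes 8 were higher, Itgb3 was lower and 17 did not pass, with a median of 1.79. The platelet chemokine gene Ppbp had 111, 74.8 and 63.2 FPKM in WT and 285, 198 and 851 FPKM in β3-/- libraries (2.17, adjusted p = 0.0452). Itga2b, the αIIb partner of integrin β3, had 11.7, 8.54 and 8.14 against 26.7, 19.1 and 72.9 FPKM (1.83, adjusted p = 0.0481), opposite in direction to Itgb3. Thbs1 (2.05), Selp (2.38), Gp1ba (2.12) and Tubb1 (1.92) were higher too. Of mast cell, basophil and eosinophil genes Ccr3 (1.09), Cpa3 (1.61), Ear6 (2.61) and Epx (2.40) were higher and Il5ra (−1.04) was lower, of 20 tested, and 15 did not pass. The 5 neutrophil calls became 14 and the 8 platelet calls 19 without β3-/- library 2, and 0 of either were called without WT library 1, 2 or 3 or β3-/- library 1. Without β3-/- library 3, 1 neutrophil and 3 platelet genes were called. With no filter, or for limma without trend, 0 of either were called.

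Of 40 cell cycle genes 34 did not pass and 6 were higher, against 3.05% of all genes higher. The 6 were Mki67 (1.91), Ube2c (1.83), E2f2 (1.46), Birc5 (1.44), Ccnb2 (1.26) and Aurka (1.01). Mki67, a nuclear protein of dividing cells, had 12, 7.81 and 5.30 FPKM in WT and 48.6, 23.4 and 23.6 FPKM in β3-/- libraries, with β3-/- library 1 well above the others. Of 33 histone genes 6 were higher, among them H1f2 (1.29) and H2ac8 (1.33), with a median of 1.07. The 6 cell cycle calls became 3 without WT library 1, 11 without β3-/- library 2 and 0 without any of the other libraries.

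**Figure D4:**
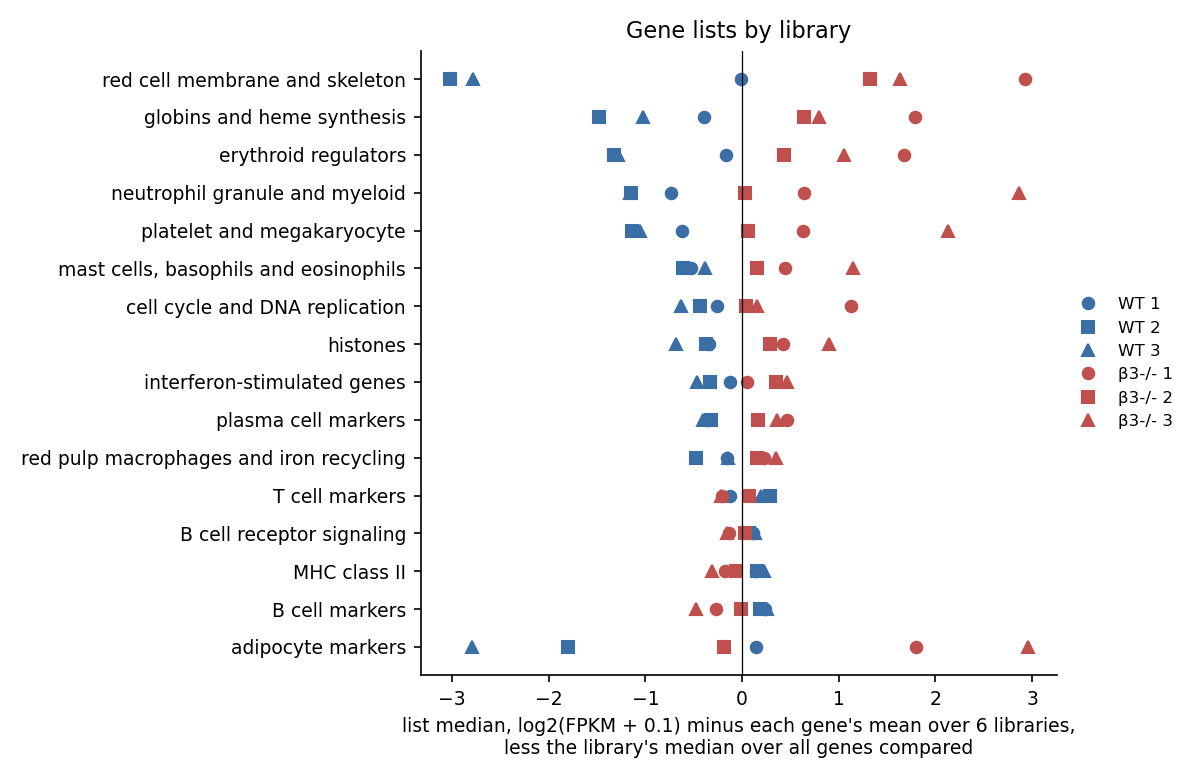
Each symbol is the median of a gene list in a spleen library, on log2(FPKM + 0.1) relative to each gene's mean over the 6 libraries and to the library's median over all genes compared, with WT in blue and β3-/- in red. The red cell membrane list is low in WT libraries 2 and 3 (−3.02 and −2.79) and high in β3-/- library 1 (2.93), whereas the neutrophil list, the platelet list and adipocyte markers peak in β3-/- library 3 (2.87, 2.13 and 2.96).

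Some macrophage and complement genes were higher and most did not pass. Of 23 red pulp macrophage and iron recycling genes 6 were higher, none was lower and 17 did not pass, with a median of 0.34, against 3.05% of all genes higher. The mannose receptor gene Mrc1 had 20.7, 20.1 and 23.6 FPKM in WT and 36.7, 37.3 and 41.5 FPKM in β3-/- libraries (log2 fold change 0.84, SE 0.10, adjusted p = 0.0114). The apoptotic cell receptor Mertk (0.60), Adgre1 (0.54), Vcam1 (0.44), C6 (0.77) and Blvrb (1.15), which acts in heme breakdown and is also an erythroid gene, were higher too. Of 27 complement genes 7 were higher and 20 did not pass, with a median of 0.07. Higher were Vsig4 (1.77), Cd59a (1.13), C6, C1qa (0.58), C1qb (0.53), C4b (0.47) and Cfp (0.44), and C3 did not pass (−0.02). Leaving out a library gave 0 to 6 macrophage and 0 to 7 complement calls, with 6 and 7 only without β3-/- library 2. Of 24 integrin genes Itgb3 was lower, and Itgad (0.75), Itgb5 (0.69), Itga2b (1.83) and Itga9 (0.52) were higher. Cd14 (1.53) and Fcgr4 (0.76) were higher among monocyte and dendritic cell genes, and the dendritic cell genes Batf3 (−0.56), Clec4a4 (−0.89) and Cd209a (−0.79) were lower.

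Other lists had few or no calls. Of 20 T cell markers Cd2 (−0.59) and Cd247 (−0.48) were lower, against 5.46% of all genes, and Cd3e did not pass (−0.56, adjusted p = 0.0945 by limma). The T cell list median was −0.45. At an unadjusted p below 0.05, 11 T cell markers were lower and 0 higher, against 26.7% of all genes lower. Of immediate early genes Ier5 (−0.82), Egr3 (−1.19) and Klf2 (−0.80) were lower and Fosl2 (1.15) was higher, and Nfil3 (1.52) was the only circadian gene that passed. Cytosolic ribosomal protein genes had 0 of 43 called by limma, with 25 lower at an unadjusted p below 0.05, against 26.7% of all genes, and a median of −0.35, or −0.19 relative to all genes. Heat shock genes (15 tested) and spleen stroma genes (22) also had none called by limma. At an unadjusted p below 0.05, 3 and 5 were lower and 1 and 2 higher, against 26.7% lower and 8.97% higher of all genes. The leukocyte gene Ptprc (−0.31) and the macrophage gene Cd68 (0.09) did not pass.

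Beyond the B-lineage genes, the largest decreases were in genes not on any list. Umod, known as the kidney protein uromodulin, had 2.48, 4.79 and 2.87 FPKM in WT and 0.0183, 0 and 0.0323 FPKM in β3-/- libraries (log2 fold change −4.85, SE 0.30, adjusted p = 0.000567). Tmem132e had 2.09, 3.06 and 1.76 against 0.025, 0.024 and 0.0545 FPKM (−4.13, adjusted p = 0.000706). Nme1nme2, a readthrough transcript that overlaps Nme1 and Nme2, had 1.58, 2.39 and 2.32 FPKM in WT and was listed at 0 in all β3-/- libraries (adjusted p = 0.000365). Umod, Tmem132e and Nme1nme2 were below 0.1 FPKM in every β3-/- library, so the filter kept them only through the WT libraries. That their groups did not overlap was therefore fixed by the filter. Rps18-ps6 is named as a pseudogene of the ribosomal protein gene Rps18 but typed as protein coding in the gene annotation used. It had 48.6, 56.5 and 49.6 FPKM in WT and 7.68, 8.21 and 6.97 FPKM in β3-/- libraries (−2.74, adjusted p = 3.72e-05). Since it is a near copy of Rps18, its share of reads is uncertain. Capsl (−3.37), Lhx2 (−3.10), Jhy (−3.06), Hoxb8 (−2.65), Foxf2 (−2.60), Igf2bp3 (−2.53), Gfra1 (−2.38) and S100a3 (−2.34) completed the 15. All of these 8 were below 1 FPKM in every β3-/- library, and 58 of the 95 lower DEGs had a β3-/- mean under 1 FPKM. Jhy and Foxf2 were below 0.1 FPKM in every β3-/- library, so the filter fixed the lack of overlap for them too.

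Nnt and the Cwc22rt genes were lower as well. Nnt, the mitochondrial transhydrogenase, had 16.2, 20.1 and 15.9 FPKM in WT and 10.6, 7.78 and 6.44 FPKM in β3-/- libraries (log2 fold change −1.09, SE 0.19, adjusted p = 0.0312). The near-identical Cwc22rt genes, on no list and singled out after values were seen, had 7 of 7 tested among the lower DEGs. The share over all genes was 0.631%. Reads may be shared between these copies, so the 7 are not independent and their count adds no support. Cwc22rt5, named after its values were seen, fell by 2.05 on the log2 scale. Outside the naming rule, the model Gm49909 on chromosome 17 had the largest increase, from 4.31, 6.98 and 0.0237 to 172, 188 and 101 FPKM (6.57, adjusted p = 0.0385).

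Transcripts of neighboring tissue were present and moved with the libraries. Of 12 tested adipocyte markers none passed by limma, with 9 higher at an unadjusted p below 0.05, against 8.97% of all genes, and the median log2 fold change was 2.92. The sum of all 14 listed adipocyte markers was 121, 33.8 and 22.4 FPKM in WT and 251, 81.8 and 582 FPKM in β3-/- libraries, so β3-/- library 3 and WT library 1 were the highest of their groups. Adipoq, the fat hormone adiponectin, had 4.21, 1.05 and 0.0884 against 13.9, 3.44 and 28.3 FPKM. Of 24 tested pancreatic acinar markers none passed (0 at an unadjusted p below 0.05), and the sum of 32 was 34.9, 2874 and 27.5 FPKM in WT and 35.9, 312.5 and 75.4 FPKM in β3-/- libraries. No islet marker of 9 passed the filter, and mesothelium and muscle markers summed to 35.9 to 52.8 FPKM over the 6 libraries. The part of fat or pancreas in the results above was not tested.

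**Figure D5:**
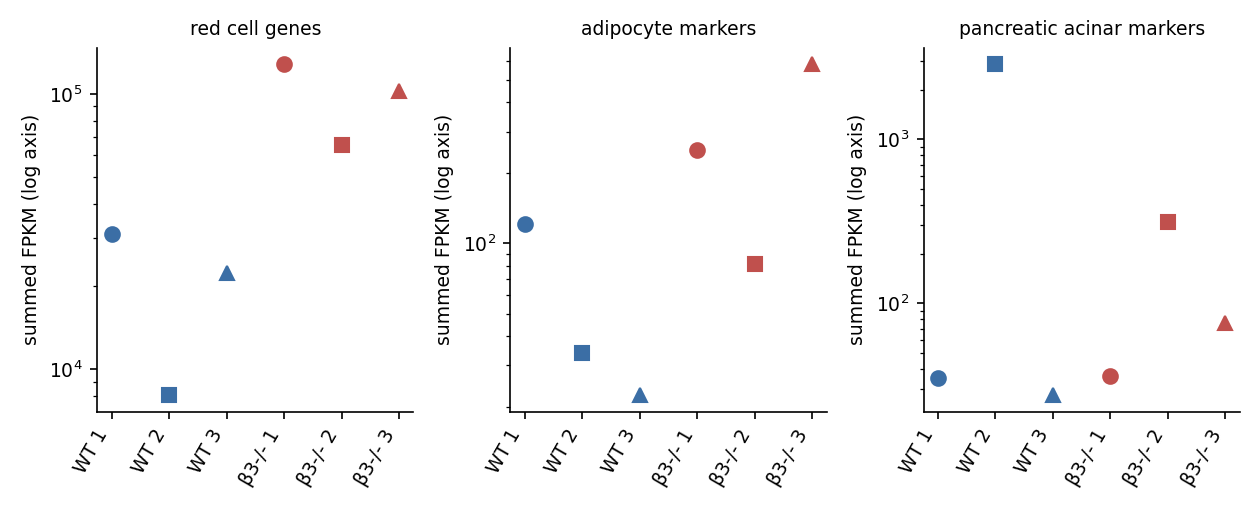
Summed FPKM (log axis) of the red cell genes of 3 lists, of adipocyte markers and of pancreatic acinar markers in each spleen library, with WT in blue and β3-/- in red. Red cell sums are higher in every β3-/- library, adipocyte sums are highest in β3-/- library 3, and acinar sums stand out in library 2 of both genotypes.

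Few of the DEGs passed the test in the lungs of the same mice, where few genes passed at all. Of the 14160 genes compared that were tested in lung, 11 (0.0777%) were higher and 0 were lower. Of the 306 higher DEGs, 262 were testable in lung and 6 were called higher there, Jchain, Alas2, Ppbp and 3 unnamed models, and of the 95 lower DEGs 67 were testable and 0 were called lower. The lung means went the same way for 171 of the 262 and 39 of the 67, against 43.4% of all genes with a higher and 56.6% with a lower lung mean. A test of the difference between tissues called 66 of 15899 genes, 0.415%, and 21 with the mouse as a term in the fit, so pairing by mouse moved the count. Of the 401 DEGs, 37 differed between the tissues by the unpaired fit, 21 of the higher and 16 of the lower, and 7 and 8 did by the paired fit. Igll1 differed by −7.43 on the log2 scale (adjusted p = 0.000212, and 0.00502 paired) and Vpreb1a by −7.09 (0.000257, and 0.00951 paired). In lung, however, Igll1 was at most 0.181 FPKM and Vpreb1a at most 0.454 FPKM in any library. A decrease like that in spleen could not show there. Xpo7 differed by 2.02 (0.0126, and 0.0458 paired). Epb42 did not pass (4.63, adjusted p = 0.0929, and 0.11 paired), so its change is not shown to differ from that in lung.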

How the data were processed

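RNA of 3 WT and 3 β3-/- spleens and of the lungs of the same mice was read from 12 libraries. Per the labels and methods, the authors used Trimmomatic for read trimming, HISAT2 for alignment to GRCm39 and featureCounts for counting. The deposited FPKM values were made by the authors from these reads with a tool not given in the sources used here. The files hold no counts, so depth is unknown and count tests were not run. The methods name TRIzol for RNA isolation, whereas the labels name a Qiagen kit.

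Of 22562 spleen identifiers, 22101 were matched to GENCODE vM39 (GRCm39), the source of names and coordinates. limma-trend (limma 3.58.1, R 4.3.3) was fitted on log2(FPKM + 0.1) of all 15480 genes that passed the filter, without covariates, and p was adjusted over all of them by the Benjamini-Hochberg method. Fold changes on this scale understate changes of low genes, and the SE is the moderated one. Lists count genes with an adjusted p below 0.05. Tissues were contrasted by an interaction term over all 12 libraries. The smallest p that exact permutation allows with 3 mice per group is 0.1. The fit was tested on simulated data of this comparison (15218 genes). At log2 changes of 1.5, 2, 3 and 4 it found 44, 47, 49 and 48 of the 50 genes simulated at each size, with 11 calls among unchanged genes. The simulated noise was independent between genes, without effects shared across a library, and genes low in WT were not among those changed. The simulation therefore does not describe calls that move with single libraries or genes near the floor.

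Named were Itgb3, the 15 largest increases and 15 largest decreases among DEGs with a gene symbol and no overlap of libraries, up to 6 members of each list with the smallest p, genes the paper names, and a few others where further list members or single genes were singled out after their values were seen. Some genes of the lists are counted but not reported here by name. The genes compared and the lists were chosen with earlier results of these data known. Alternatives were other pseudocounts, filters, scalings, variance models and thresholds, and each library left out. The sets without pancreas-containing or adipocyte-rich libraries were added after the data were seen. Promoter sequences are from RefSeq on GRCm38.p6, a different build from that of the gene coordinates. They were matched by Ensembl identifier, or by symbol where none was listed, for 11321 of the 15067 genes.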

Additional observations from a re-analysis of the deposited data

Results flagged for a closer look

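The effect of the genotype differed between spleen and lung (interaction term, limma, adjusted p below 0.05) for 17 of the named genes. On the log2 scale, spleen minus lung was −7.43 for Igll1, −7.09 for Vpreb1a, −4.85 for Umod, −4.32 for Vpreb1b, −4.28 for Tmem132e, −3.15 for Rps18-ps6, −3.10 for Lhx2, −2.72 for Foxf2 and −1.05 for Cd3d. It was −3.24 for Jchain, which rose in both tissues and more in lung. It was 2.02 for Xpo7, 1.93 for Ccr10, 1.78 for Bcl2l1, 1.54 for Epb41, 1.13 for Mrc1, 0.84 for Mertk and 0.79 for Bnip3l. Umod was listed at 0 in every lung library. Igll1, Vpreb1a, Tmem132e, Vpreb1b and Lhx2 were at most 0.181, 0.454, 0.0495, 0.0633 and 0.0167 FPKM in any lung library. For these genes a decrease in lung could not show, so the difference reflects the spleen change alone. With the mouse as a term in the fit, Igll1, Vpreb1a, Umod, Vpreb1b, Tmem132e, Rps18-ps6, Jchain, Xpo7 and Mrc1 still passed, with adjusted p of 0.00502, 0.00951, 0.0202, 0.0202, 0.0271, 0.00502, 0.0474, 0.0458 and 0.0458. Lhx2 (0.0729), Foxf2 (0.0711), Cd3d (0.0822), Ccr10 (0.0863), Bcl2l1 (0.0565), Epb41 (0.0731), Mertk (0.0935) and Bnip3l (0.0878) did not.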

How the results depend on the processing

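Groups of 3 mice limit these calls, and most adjusted p of the DEGs lay between 0.03 and 0.05, so that counts moved with each library and setting, while the relative medians of the red cell, B cell marker, plasma cell and interferon lists kept their direction. Higher DEGs were 78 with no filter, 56 for limma without trend, 12 without the pancreas-containing libraries, 118 without the adipocyte-rich libraries and 460 with no fold threshold. Lower DEGs were 30 at a pseudocount of 1, 58 with no filter, 61 with a filter at 1 FPKM, 319 for TPM, 167 for TPM without immunoglobulin genes, 56 for median-of-ratios scaling, 53 without trend, 5 without pancreas-containing and 18 without adipocyte-rich libraries, 396 at a fold threshold of 0.58 and 822 with none. Leaving out a library gave 10 to 468 higher and 7 to 189 lower DEGs. At an adjusted p below 0.05 alone, higher genes were 111 with no filter, 66 without trend, 12 without pancreas-containing and 123 without adipocyte-rich libraries, 819 in the fit of all 12 libraries, and 12 to 739 with a library left out. Lower genes were 155 with no filter, 1274 with a filter at 1 FPKM, 5307 for TPM, 1601 for TPM without immunoglobulin genes, 183 for median-of-ratios scaling, 77 without trend, 1566 with sample weights, 5 without pancreas-containing and 18 without adipocyte-rich libraries, 2189 in the fit of all 12 libraries, and 7 to 2961 with a library left out. The difference between tissues was called for 21 genes with the mouse as a replicate block and 104 at a pseudocount of 1, against 66. Relative medians moved for plasma cell markers (0.80 without pancreas-containing libraries, 0.62 to 0.79 with a library left out), B cell receptor signaling (−0.28 to −0.16 with a library left out), histones (0.73 at a pseudocount of 1), the Nnt list (0.12 without adipocyte-rich libraries) and mesothelium and muscle markers (0.004 to 1.00 with a library left out). Directions turned for Idh2 (0.006), Des (0.012), Nfkbia (0.16) and C3 (0.15) under median-of-ratios scaling, for Cd68 for TPM (−0.11), TPM without immunoglobulin genes (−0.016) and without pancreas-containing libraries (−0.018), and for the acinar genes Clps (−3.83 to 0.47 over single libraries left out), Ctrl (−3.10 to 0.68) and Cela1 (−1.58 to 0.57), each positive only without WT library 2. Replicate numbers were shared by the WT and β3-/- libraries. Deviations of same-numbered libraries correlated at 0.177, 0.267 and 0.076, and those of differently numbered libraries at −0.272 to 0.0986. The main fit did not use the numbers as pairs, and what same-numbered libraries share was not tested. A replicate block gave 419 higher and 97 lower DEGs, with 57 of 61 red cell genes higher. The cause of these shifts was not tested.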
